A study of Mus musculus with 4 samples.

Results

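The p53 dependence of the Adriamycin response was measured gene by gene in mouse embryonic stem (ES) cells, as the response of p53+/+ cells minus the response of p53-/- cells. All 4 libraries of the series entered this comparison: p53+/+ untreated, p53+/+ Adriamycin, p53-/- untreated and p53-/- Adriamycin, with 1 library in each group. Every group was of a mixed strain labelled C57BL/6X129Sv mix and was grown in serum with leukemia inhibitory factor. The treated groups received Adriamycin, the topoisomerase II poison doxorubicin, at 0.5 uM for 8 h. The exons deleted in the p53-/- cells, and whether each genotype was 1 clone or several, are not given in the sources used here. Levels were FPKM values, that is sequenced fragments normalised for transcript length and sequencing depth, summed over the transcripts of a gene. A response is the treated minus the untreated level on the log2(FPKM + 1) scale, and the response difference subtracts the p53-/- from the p53+/+ response. The scale makes changes of genes with low values look smaller than they are. Of 22392 genes, 13013 reached 1 FPKM in at least 1 library and were compared, with short RNA genes left out. A difference of 1 on this scale, a 2-fold step, in either direction was counted. With 1 library per group there is no replicate check, so neither p-values nor standard deviations are given and every count describes these libraries. The samples are bulk cultures, in which fewer cells of a type and less RNA per cell cannot be told apart.

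The protein p53 is a transcription factor that is kept scarce by the ubiquitin ligase Mdm2 and accumulates when kinases signal DNA breaks. It binds a response element made of a repeated half-site and raises transcription of genes that halt the cell cycle, promote apoptosis, repair DNA and limit p53 itself. Lower transcription of cell cycle genes is known to run largely through p21 and the DREAM repressor complex, and in ES cells p53 is also known to lower genes of the pluripotent state.

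Trp53, the targeted gene, stood at 216 and 165 FPKM without and with treatment in p53+/+ cells and at 78.6 and 76.5 FPKM in p53-/- cells. It was lower in both p53-/- libraries but not absent, and a whole-transcript value cannot show which exons remained. The ES cell markers Pou5f1, Sox2, Nanog, Zfp42, Dppa5a and Utf1 were present in all 4 libraries, the lowest value being 84.7 FPKM for Zfp42 in treated p53+/+ cells. The libraries held 3.34 to 4.32 gigabases of aligned sequence, and 11422 to 12293 genes reached 1 FPKM in each. Markers of other cell types differed between genotypes before treatment. The 23 listed fibroblast markers, 22 of which reached 1 FPKM in a library, summed to 420 and 368 FPKM in p53+/+ cells. In p53-/- cells they summed to 1325 and 1213 FPKM. The fibroblast genes Col3a1, Lum and Postn were listed at 0 in both p53+/+ libraries. The untreated genotypes thus differed in more than Trp53, and the part of such cells in the response difference was not tested.

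Most of the genes that moved in p53+/+ cells did not move by the same step in p53-/- cells. In p53+/+ cells 1484 genes (11.4% of those compared) were higher by the step and 361 (2.77%) were lower. In p53-/- cells 53 (0.407%) were higher and 60 (0.461%) were lower. The response difference reached 1 in 1358 genes (10.4%) and -1 in 430 genes (3.3%). Differences at 1 or more made up 76.0% of those past the step, and 65.3% after quantile normalization. The share also moved with the step, to 59.0% at a 1.5-fold and 91.9% at a 4-fold step. The medians over all genes were 0.05 for the p53+/+ response, 0.07 for the p53-/- response and -0.01 for their difference.

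The genes were sorted by both responses and their difference. A gene was called p53-dependent when its p53+/+ response and the response difference both passed the step in 1 direction while the p53-/- response stayed between -1 and 1. This held for 1234 higher genes (9.48%) and 237 lower genes (1.82%). Only 6 genes were higher in both genotypes and 10 lower in both, together the shared class, and 2 moved in opposite directions. A further 40 genes were higher and 28 lower in p53-/- cells only. Another 244 genes passed the step upward and 112 downward in p53+/+ cells, but with a response difference short of it, and 10830 genes passed no step. Sorting on a step divides a continuous range: Rxylt1 (1.0002) and Ctsf (1.0004) lay just inside a difference of 1 and Mafa (0.9979) just outside it. Lap3 (-1.0008) lay just inside -1 and Ankrd28 (-0.9996) and Cdkn1b (-0.9992) just outside.

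**Figure D1:**
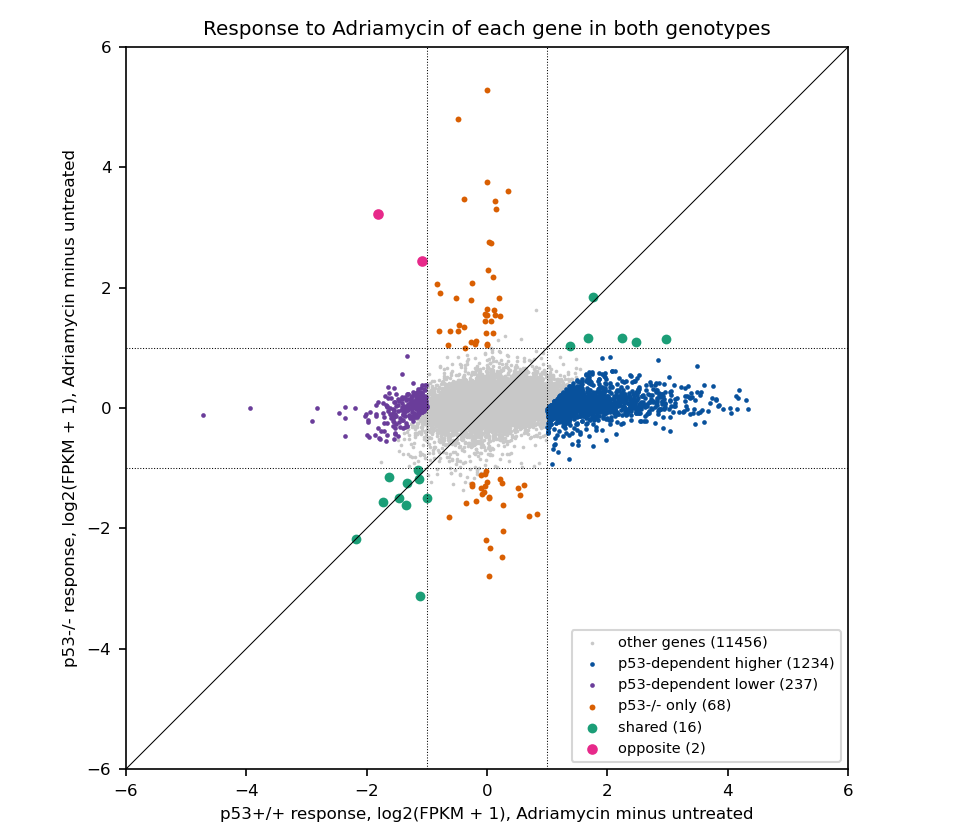
Response of each of the 13013 genes to Adriamycin in p53+/+ cells (horizontal axis) and in p53-/- cells (vertical axis), both as differences of log2(FPKM + 1). Dotted lines mark the step of 1 in each direction and the solid line equal responses; the 1234 p53-dependent higher genes spread to the right along a p53-/- response near 0, while the 16 shared genes lie near the diagonal corners.

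The p53 response element is a 20-base sequence of 2 half-sites. It was sought in the RefSeq promoter table (GRCm38.p6), whose windows run from 250 bases before to 50 bases after an annotated start. The table held 13205 promoters for 10378 of the 13013 genes. A gene was counted for a motif if any of its promoters held it, so genes with more promoters had more chances of a match. A full site here is 2 adjoining half-sites with no spacer, read on both strands. The core C and G of each half-site had to be present, so mismatches were allowed only at the other bases. This definition and the mismatch limits were chosen after the shares had been seen. With up to 1 mismatch, a full site was held by 5 of 981 p53-dependent higher genes with a promoter (0.51%). It was held by 0 of 181 p53-dependent lower genes and by 7 of all 10378 genes (0.0675%). With up to 2 mismatches these shares were 2.04%, 0.552% and 0.491%, and with up to 3 they were 4.79%, 1.66% and 1.98%. The sites below are those of the 5 p53-dependent higher genes with up to 1 mismatch and of 4 further genes of that class. The 4 are from the 5 with 2 mismatches that had the largest response differences. The first 5 are shown as the closest matches near a start of genes that moved with p53. The other 4 are shown for their response differences, since more genes of the class, such as Gpr132, match with 2 mismatches. Capitals mark bases of the 20-base site that fit the consensus, and lower case marks mismatches within it and 5 flanking bases on each side.
Sptbn4: gagggGAGCTAGCCTAGGCTAGTCTgcatt
Gtse1: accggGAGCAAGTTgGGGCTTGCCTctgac
Ccng1: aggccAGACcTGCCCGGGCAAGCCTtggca
Calhm2: ctggaGGGCAAGCCTAGGCAAGaTCtcctt
Cdkn1a: ttcagGAACATGTCTtGACATGTTCagccc
Trp73: tctccGGGCAAGCTgAGGCcTGCCCtgagt
Mst1: gtgtcAGtCAAGTCCAGGCAgGTTCagaga
Zfp365: tagcaAGACTAGgCTGGGCAAGaCTggcac
Ms4a10: tgaagGAtCTAGTCCAGACATGCaTctctg

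The Sptbn4 site fits the consensus at every base, lies at chr7:27396234-27396253 on the minus strand and begins 55 bases upstream of an annotated start. All distances in this paragraph are from an annotated start, of which a gene may have several. The Cdkn1a site lies at chr17:29090928-29090947 on the plus strand, 51 bases upstream. Which Cdkn1a transcript begins at that start was not determined. The Gtse1 site at chr15:85859945-85859964 (plus strand) begins 1 base upstream and so spans the start itself. The Ccng1 site lies at chr11:40755462-40755481 (minus strand), 195 bases upstream, and the Calhm2 site at chr19:47138451-47138470 (minus strand), 176 bases upstream. The Trp73 site lies at chr4:154097220-154097239 (minus strand), 66 bases upstream. The remaining sites lie at chr9:108080354-108080373 (Mst1, plus strand), chr10:67912706-67912725 (Zfp365, minus strand) and chr19:10974781-10974800 (Ms4a10, minus strand). All positions in this paragraph are in GRCm38.p6, while the expression tables are in mm9.

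The share of genes with a p53 motif in a promoter was larger at larger response differences. A full site with up to 2 mismatches was found in 0.315% of genes at -1 or less, in 0.223% between -1 and 0 and in 0.444% between 0 and 1. It was found in 1.78% between 1 and 2, in 2.01% between 2 and 3 and in 5.13% at 3 or more, the last being 2 of 39 genes. The half-site alone, searched by its consensus on both strands without mismatch, increased from bin to bin over the same range, from 5.36% to 15.4%. It was held by 12.3% of p53-dependent higher, 5.52% of p53-dependent lower and 8.33% of all genes with a promoter. A full site with no mismatch holds the half-site, so the 2 motifs overlap. Median GC content, averaged over the promoters of each gene, was 60.67% both for p53-dependent higher genes and for all genes. The median number of CpG dinucleotides per 300 bases was 17 against 20. A match is a string of letters in this window and not a measured binding site.

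**Figure D2:**
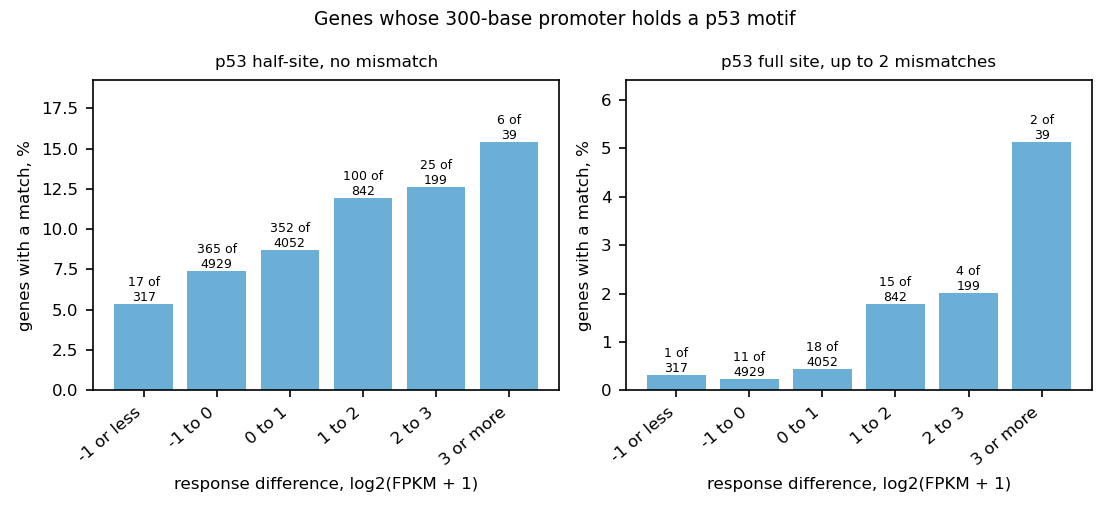
Percentage of genes whose 300-base promoter holds a p53 half-site (left) or a full site with up to 2 mismatches (right), by response difference on the log2(FPKM + 1) scale, with the number of genes above each bar. The full-site share goes from 0.223% between -1 and 0 to 5.13% at 3 or more.

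Other motifs were searched on both strands in the same windows. The AP-1 site TGANTCA, read by FOS and JUN dimers, was in 7.95% of p53-dependent higher genes, 3.31% of p53-dependent lower genes and 5.92% of all genes with a promoter. The CCAAT box CCAAT, bound by NF-Y, was in 41.0%, 39.2% and 43.7%, and the cell cycle homology region TTTGAA, read by the DREAM complex, in 13.7%, 13.8% and 14.1%. The E-box CACGTG of MYC and related factors was in 10.4%, 12.7% and 11.9%. The E2F site, TTT and CGC around 2 bases that are each C or G, was in 2.96%, 5.52% and 4.79%. The cyclic AMP response element, TGAC followed directly by GTCA, was in 2.24%, 2.76% and 3.53%. The interferon-stimulated element, GAAA before and after any 2 bases, was in 3.06%, 6.08% and 3.33%. The lower class rests on 181 genes with a promoter, so that 6.08% is 11 genes.

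Many genes that limit or modify p53 itself were p53-dependent higher. Of 20 measured genes of p53 feedback and its cofactors, 9 were p53-dependent higher and 0 were p53-dependent lower, and the median response difference was 0.97 against -0.01 for all genes. Over all compared genes 9.48% were p53-dependent higher and 1.82% lower, and the counts of every list below are to be read beside these shares. Mdm2, which encodes the ligase that degrades p53, stood at 32.6 and 257 FPKM without and with treatment in p53+/+ cells and at 17.7 and 19.9 FPKM in p53-/- cells, a response difference of 2.79. Trp73, the p53 relative whose promoter site is shown above, had the highest difference of the genes named by size: it stood at 1.33 and 46.01 FPKM in p53+/+ cells and at 0.0848 and 0.0672 FPKM in p53-/- cells, a difference of 4.36. Only the treated p53+/+ library was high for either gene. Ppm1d, the phosphatase Wip1 that shuts off damage signalling, stood at 7.72 and 28.3 FPKM in p53+/+ cells and at 7.58 and 8.24 FPKM in p53-/- cells. Ppp1r13l, which encodes the p53 inhibitor iASPP, stood at 6.76 and 57.2 FPKM in p53+/+ and at 8.31 and 9.97 FPKM in p53-/- cells. These 2 genes had nearly equal untreated levels in the genotypes, unlike the next ones. Ccng1, cyclin G1, stood at 58.1 and 214 FPKM in p53+/+ and at 9.62 and 13.9 FPKM in p53-/- cells. Trp53inp1, a stress-induced cofactor, stood at 27.5 and 119 FPKM in p53+/+ and at 2.01 and 3.62 FPKM in p53-/- cells. For both, the untreated p53+/+ level already exceeded the treated p53-/- level. Mdm4, the Mdm2 partner, missed the class, since its p53+/+ response was 0.61 and its p53-/- response -0.41.

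The list of arrest and growth control genes divided into both directions. The genes described in this paragraph were all p53-dependent higher, and the 4 lower ones are not named. Of 22 measured genes of arrest and growth control, 10 were p53-dependent higher and 4 p53-dependent lower, with a median response difference of 0.54. Cdkn1a, the cyclin-dependent kinase inhibitor p21, stood at 26.2 and 85.8 FPKM in p53+/+ cells and at 17.997 and 24.6 FPKM in p53-/- cells. Its response was 1.67 and 0.43 in the genotypes, so the p53-/- value was positive but short of the step. Plk2, a polo-like kinase, stood at 8.05 and 109.8 FPKM in p53+/+ and at 1.91 and 2.79 FPKM in p53-/- cells. Btg2, an antiproliferative cofactor, stood at 9.46 and 74.4 FPKM in p53+/+ and at 1.84 and 3.93 FPKM in p53-/- cells. Plk2 and Btg2 had their lowest values in untreated p53-/- cells, and their highest in treated p53+/+ cells. Cdkn2b, the p15 inhibitor, had a response of 2.82 in p53+/+ and 0.31 in p53-/- cells, from an untreated level that was lower in p53+/+ (0.911 FPKM) than in p53-/- cells (5.97 FPKM). The spindle genes Psrc1 and Gtse1 went in different directions in the genotypes, though only the p53+/+ side passed the step. Psrc1 stood at 61.1 and 159 FPKM in p53+/+ and at 10.4 and 5.33 FPKM in p53-/- cells. Gtse1, whose product exports p53 from the nucleus and whose promoter holds a site over its start, stood at 76.9 and 169.7 FPKM in p53+/+ and at 36.7 and 25.6 FPKM in p53-/- cells.

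Cell death genes that passed the step were all on the higher side. Of 25 measured members, 10 were p53-dependent higher and 0 lower, with a median response difference of 0.74. Fas, a death receptor, stood at 0.253 and 11.2 FPKM in p53+/+ and at 0.0744 and 0.238 FPKM in p53-/- cells. Perp, a membrane effector of p53 death signals, stood at 9.06 and 82.7 FPKM in p53+/+ and at 4.49 and 5.68 FPKM in p53-/- cells. Fas was under 1 FPKM in 3 of the 4 libraries, whereas Perp was measured above 4 FPKM in each. Pidd1, a death domain scaffold that activates caspase-2, stood at 9.61 and 53.99 FPKM in p53+/+ and at 5.82 and 6.73 FPKM in p53-/- cells. Apaf1, the apoptosome scaffold, stood at 7.48 and 43.96 FPKM in p53+/+ and at 1.94 and 2.57 FPKM in p53-/- cells. The response differences of these 4 genes were 3.08, 2.77, 2.19 and 2.13. Bbc3, which encodes the BH3 protein Puma, stood at 11.01 and 43.5 FPKM in p53+/+ and at 2.19 and 2.51 FPKM in p53-/- cells. Siva1, which encodes a proapoptotic adaptor, was measured at high levels in both genotypes, 86.9 and 226 FPKM in p53+/+ and 105 and 76.4 FPKM in p53-/- cells.

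Of the metabolic and repair targets of p53, some passed the step with p53 and the others did not. Of 32 metabolism and stress targets, 14 were p53-dependent higher and 0 lower, with a median response difference of 0.79, or 0.43 over the members whose FPKM lies within its own 95% bounds. Dcxr, a carbonyl reductase of xylulose, stood at 18.02 and 196 FPKM in p53+/+ and at 5.601 and 5.16 FPKM in p53-/- cells. Ephx1, an epoxide hydrolase of drug metabolism, stood at 6.95 and 77.6 FPKM in p53+/+ and at 4.05 and 4.203 FPKM in p53-/- cells. Their p53-/- responses were -0.10 and 0.04. Ddit4, an inhibitor of mTOR signalling, stood at 68.5 and 223 FPKM in p53+/+ and at 102 and 73.2 FPKM in p53-/- cells, where it was higher before treatment than in p53+/+ cells. Abcb1b, a P-glycoprotein that pumps Adriamycin out of cells, had responses of 2.37 in p53+/+ and 0.16 in p53-/- cells. Of 16 repair targets, 3 were p53-dependent higher, namely Ercc5, the translesion polymerase gene Polk and the alkyltransferase gene Mgmt, and 1 lower, the abasic endonuclease Apex1, and the median was -0.11. Ercc5, an excision nuclease, stood at 6.17 and 38.01 FPKM in p53+/+ and at 3.62 and 4.27 FPKM in p53-/- cells. Apex1 stood at 120.4 and 57.1 FPKM in p53+/+ and at 55.97 and 58.5 FPKM in p53-/- cells. None of the 29 checkpoint and break repair genes was p53-dependent in either direction, against 9.48% higher and 1.82% lower of all genes, and their median was -0.17. Of 18 topoisomerase and drug transport genes, 2 were p53-dependent higher, Abcb1b and the mitochondrial topoisomerase gene Top1mt, and 0 lower, with a median of 0.03, or -0.15 with a filter of 5 FPKM. The share of higher members is near the 9.48% of all genes in that class.

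**Figure D3:**
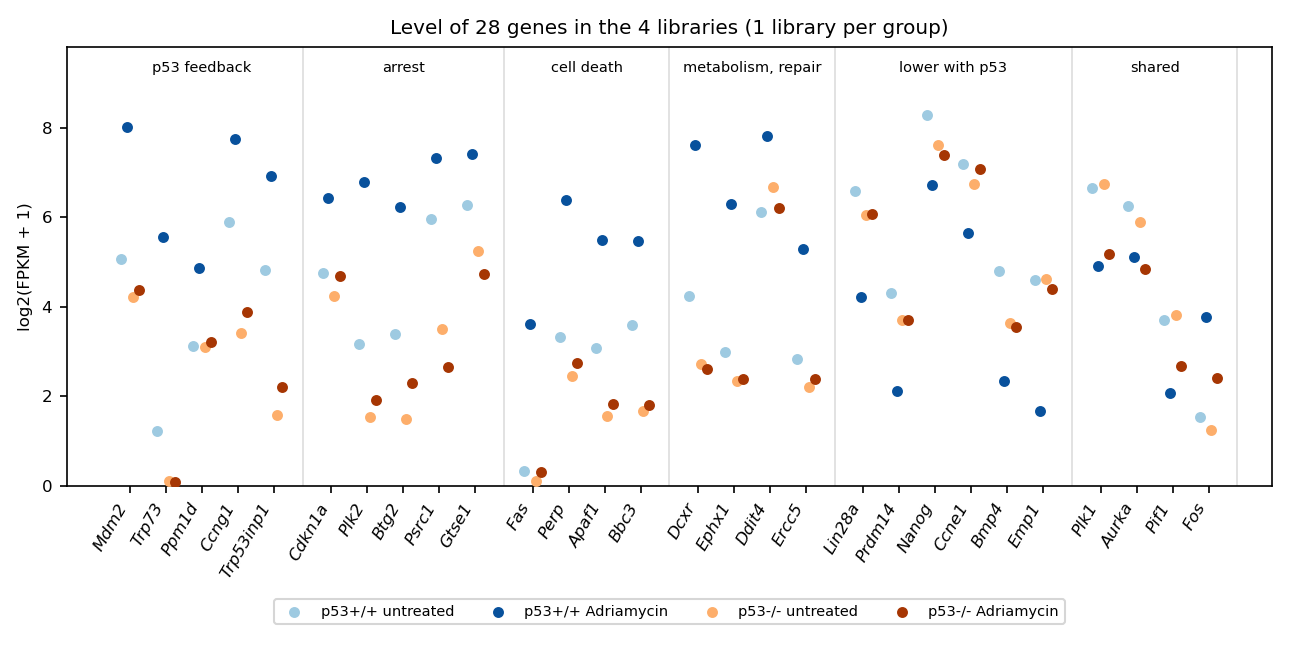
Level, as log2(FPKM + 1), of selected genes in the 4 libraries, grouped by role, with 1 point per library. For the p53 target groups the treated p53+/+ point is the highest, for the genes lower with p53 it is the lowest, and for Plk1, Aurka and Pif1 both treated points lie below both untreated ones.

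The largest response differences outside the classical target lists came from genes near silence without treatment. Sytl1, a synaptotagmin-like trafficking protein, stood at 0.841 and 31.99 FPKM in p53+/+ and at 1.09 and 1.06 FPKM in p53-/- cells. Them5, an acyl-CoA thioesterase, stood at 0.207 and 18.99 FPKM in p53+/+ and at 0.272 and 0.208 FPKM in p53-/- cells. In both, 3 of the libraries lay close together and only the treated p53+/+ library stood apart. Matn1, Apol8, Cpz, Ltb4r2 and Il20rb, which encode a cartilage matrix protein, an apolipoprotein L, a carboxypeptidase, a leukotriene receptor and an interleukin receptor chain, had differences of 4.04, 4.004, 3.81, 3.80 and 3.73. Each stood between 15.2 and 22.9 FPKM in treated p53+/+ cells and under 1 FPKM in the other libraries. At such low starting levels the size of the difference depends on the pseudocount, as given under the processing alternatives.

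Lists of signalling and epidermal genes held p53-dependent members with large differences, and their medians lay between -0.14 and 0.42, against -0.01 for all genes. Of all genes, 9.48% were p53-dependent higher and 1.82% lower. Of 21 antigen presentation and interferon genes, 5 were p53-dependent higher and 1 lower, with a median of -0.14. The peptide transporter Tap1 stood at 1.32 and 45.01 FPKM in p53+/+ and at 0.753 and 0.922 FPKM in p53-/- cells, and Nlrc5, an activator of MHC class I genes, at 0.0647 and 2.82 FPKM and at 0.1004 and 0.0972 FPKM. The RNA sensor Ddx58 moved the other way, with 6.99 and 1.48 FPKM in p53+/+ and 6.97 and 8.19 FPKM in p53-/- cells. Of 21 epidermal barrier and keratin genes, 8 were p53-dependent higher and 1 lower, with a median of 0.42, led by Sbsn (3.89), Tmem40 (3.83) and the cornified envelope gene Evpl (2.65). Of 21 AP-1 and immediate early genes, 3 were p53-dependent higher, among them Fosl1 and Jun, and 1 lower, Ier3. Fosl1 stood at 0.0811 and 18.2 FPKM in p53+/+ and at 0.821 and 1.09 FPKM in p53-/- cells. The AP-1 median was 0.00 and took either sign across the processing alternatives. Of 30 Wnt pathway genes, 7 were p53-dependent higher, all of them Wnt ligands, and 2 lower, the inhibitor Sfrp1 and the transcription factor Lef1. Wnt3 stood at 0.0374 and 6.82 FPKM in p53+/+ and at 0.182 and 0.3598 FPKM in p53-/- cells. Lef1 stood at 14.2 and 3.67 FPKM in p53+/+ and at 9.002 and 7.41 FPKM in p53-/- cells. The Wnt median of 0.02 also changed sign with the processing.

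Genes of the pluripotent state had the lowest median response difference of the 28 lists, except with a filter of 5 FPKM, where neural and epiblast markers stood at -1.16. Of 37 measured pluripotency genes, 9 were p53-dependent lower and 0 higher, and the median difference was -0.69. Lin28a, which blocks let-7 maturation, stood at 94.8 and 17.6 FPKM in p53+/+ and at 65.6 and 66.4 FPKM in p53-/- cells. Prdm14, a regulator of naive pluripotency, stood at 18.9 and 3.38 FPKM in p53+/+ and at 11.99 and 11.99 FPKM in p53-/- cells. Nanog stood at 310.01 and 105 FPKM in p53+/+ and at 194 and 166 FPKM in p53-/- cells. The p53-/- response was 0.02 for Lin28a, 0.001 for Prdm14 and -0.22 for Nanog. For Nr0b1 and Gbx2, both p53-dependent lower, it was -0.47 and -0.47, short of the step, against -2.35 and -1.96 in p53+/+ cells. For these genes the untreated p53+/+ library held the highest value, and the p53+/+ response and the response difference both subtract it. Markers of other cell types were summed beside these genes, over all members with a value, whether or not they reached 1 FPKM. The 13 neural and epiblast markers, 8 of which reached 1 FPKM, summed to 91.4 and 45.9 FPKM in p53+/+ and to 192 and 208 FPKM in p53-/- cells. The 16 trophoblast markers, 9 of which reached 1 FPKM, summed to 42.1, 54.0, 97.0 and 92.3 FPKM in the same order. The early embryo markers of the 2-cell-like state (17 with a value) summed to 579 and 869 FPKM in p53+/+ and to 121 and 130 FPKM in p53-/- cells. Their median response difference was 0.58 over the 13 members that reached 1 FPKM, and Tcstv3 was listed at 0 in all 4 libraries. The 19 primitive endoderm markers, 16 of which reached 1 FPKM, summed to 345 and 388 FPKM in p53+/+ and to 274 and 283 FPKM in p53-/- cells. The 11 mesendoderm markers, 4 of which reached 1 FPKM, summed to 6.54, 8.04, 5.19 and 5.89 FPKM. Of 12 listed blood and endothelial markers, 10 had a value and 7 reached 1 FPKM. The 10 summed to 122 and 221 FPKM in p53+/+ and to 64.7 and 63.9 FPKM in p53-/- cells. Eng, an endothelial co-receptor, stood at 21.3 and 113 FPKM in p53+/+ cells, while the leukocyte marker Ptprc was listed at 0 in 3 of the 4 libraries. The part of these cell types in the pluripotency values was not tested. Among the fibroblast markers Col1a1 and Bgn were p53-dependent higher, with Col1a1 at 0.727 and 5.03 FPKM in p53+/+ cells, far below its 151 and 117 FPKM in p53-/- cells.

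Signalling ligands of the early embryo went both ways. Of 28 FGF, Nodal and BMP genes, 4 were p53-dependent higher and 3 lower, against 9.48% and 1.82% of all genes, with a median of -0.28. Bmp4 stood at 26.9 and 4.102 FPKM in p53+/+ and at 11.5 and 10.8 FPKM in p53-/- cells, whereas its relative Bmp7 stood at 1.61 and 16.6 FPKM and at 1.97 and 2.18 FPKM. The ligands Fgf17 and Fgf15 were p53-dependent lower (-2.20 and -1.75), and the receptor Fgfr4 higher (2.23). Nodal and its inhibitor Lefty1 were both p53-dependent higher. Nodal stood at 30.03 and 94.9 FPKM in p53+/+ and at 13.1 and 14.3 FPKM in p53-/- cells. Lefty1 stood at 34.3 and 126 FPKM in p53+/+ and at 94.7 and 118 FPKM in p53-/- cells, so that treated p53+/+ cells only reached the level of p53-/- cells. Of the p53-dependent lower genes named by size, the lowest difference was that of Emp1, an epithelial membrane protein, at 23.1 and 2.21 FPKM in p53+/+ and at 23.5 and 20.2 FPKM in p53-/- cells.

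Other p53-dependent lower genes came from the G1 phase, chromatin and biosynthesis. The share over all genes was 1.82% p53-dependent lower and 9.48% higher, and several of these lists held only 1 or 2 such members. Of 36 G1/S and replication genes, 5 were p53-dependent lower and 0 higher, with a median of -0.53, and all 5 were cyclins or their kinase: Ccne1, Cdk6, Ccnd1, Ccnd2 and Ccnd3. Ccne1, cyclin E1, stood at 145 and 49.3 FPKM in p53+/+ and at 106 and 133 FPKM in p53-/- cells. Of 22 polycomb and DNA methylation genes, 1 was p53-dependent lower, the histone methyltransferase Ezh2 (-1.16), while its partner Suz12 reached -1.03 with a p53+/+ response of -0.91, and the median was -0.57. Cholesterol and fatty acid synthesis genes had a median of -0.45 with 2 of 25 p53-dependent lower, the desaturases Scd1 (-1.63) and Scd2 (-1.10). MYC and ribosome biogenesis genes had a median of -0.28 with 2 of 32 p53-dependent lower, Mycn and the nucleolar protein gene Nop58, and 1 higher, the MYC antagonist Mxd4. In the integrated stress and unfolded protein response list, Cebpb and Sesn2 were p53-dependent higher and Xbp1, Atf4 and Asns lower, with a median of -0.20 over 24 genes. Slc2a3 and Hk2, a glucose transporter and a hexokinase, were the 2 p53-dependent lower genes among 25 glycolysis and hypoxia genes, and Pfkm was the 1 higher, with a median of -0.19.

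**Figure D4:**
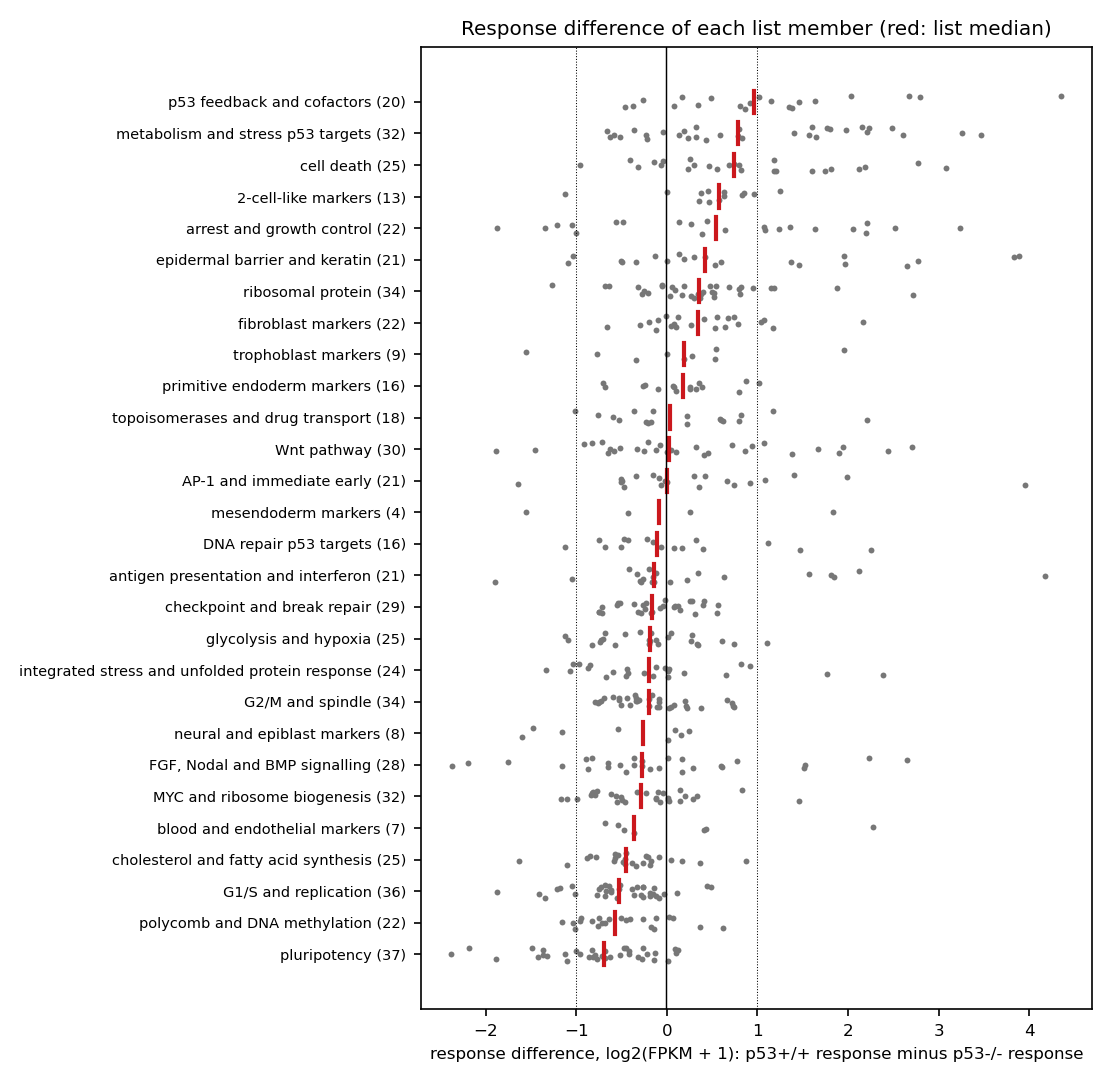
Response difference, on the log2(FPKM + 1) scale, of each measured member (grey points) of 28 gene lists, with the list median in red, the number of members in parentheses, the median of all genes as a solid line and the step of 1 as dotted lines. The medians run from -0.69 for pluripotency genes to 0.97 for p53 feedback genes.

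Mitotic genes had negative median responses in both genotypes. Of 34 G2/M and spindle genes, 0 were p53-dependent in either direction and 2 were lower in both genotypes, with median responses of -0.59 in p53+/+ and -0.47 in p53-/- cells and a median difference of -0.20. Plk1, the mitotic polo-like kinase, stood at 99.04 and 29.2 FPKM in p53+/+ and at 106 and 35.4 FPKM in p53-/- cells. Aurka, the centrosomal Aurora kinase, stood at 75.4 and 33.6 FPKM in p53+/+ and at 58.3 and 27.9 FPKM in p53-/- cells. In both genes the 2 treated libraries lay below the 2 untreated ones. The DNA helicase Pif1 followed the same pattern, at 12.1 and 3.24 FPKM in p53+/+ and at 13.2 and 5.3998 FPKM in p53-/- cells. Other mitotic genes passed the step on only 1 side: Kif23 and Cks2 in p53+/+ cells (-1.30 and -1.47, against -0.51 and -0.71 in p53-/- cells), and Hmmr and Cdc20 in p53-/- cells (-1.005 and -1.12, against -0.28 and -0.45 in p53+/+ cells). None of these 4 had a response difference past 1.

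The remaining shared genes were few and mostly uncertain. Fos, the immediate early AP-1 subunit, was the 1 shared higher gene that belongs to a pathway list, at 1.897 and 12.7 FPKM in p53+/+ and at 1.37 and 4.29 FPKM in p53-/- cells, a response of 2.25 against 1.16. The RNase P RNA Rpph1 stood at 3.33, 12.9, 3.72 and 9.64 FPKM in the order p53+/+ untreated, p53+/+ Adriamycin, p53-/- untreated and p53-/- Adriamycin. Rprl3, an RNase P RNA-like gene, and Mup6, listed at 0 in untreated p53-/- cells, were also in the class, and so were Prima1 and Hba-a2, which stayed under 3 FPKM throughout. On the lower side, Naca, a ribosome-bound chaperone subunit, stood at 69.9, 27.2, 40.01 and 16.2 FPKM in that order, and Eno1, an enolase, at 8.74, 2.54, 5.74 and 1.39 FPKM. H2ac10, Atp5md, Rbis, Eif3j2 and Oaz1-ps completed the class. Reads of histone genes and of genes with near-identical copies may be split among copies, so these values are uncertain.

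Some known targets had a positive p53-/- response short of the step, while the p53-dependent higher class as a whole stood at the level of all genes. The median p53-/- response of the 1234 p53-dependent higher genes was 0.05, against 0.07 for all genes, and it lay above 0 in 793 of them (64.3%), against 64.5% of all genes. The class requires a large difference, which favours low p53-/- responses. In 10 of these genes (0.81%) the p53-/- response reached 1.5-fold in the same direction as the p53+/+ response, against 285 (2.19%) of all genes. Among these 10 were Btg2 at 0.80, Trp53inp1 at 0.62, the membrane metalloproteinase gene Mmp15 at 0.62 and Ikbip, a target of p53 in human cells, at 0.61, all named after their values were seen. Over the 747 p53-dependent higher genes with 1 transcript and values within their own bounds, the 95% bounds of treated and untreated libraries lay apart in all 747 for p53+/+ cells and in 59 (7.9%) for p53-/- cells. Over all 7629 such genes the bounds lay apart in 60.5% for p53+/+ cells and in 17.5% for p53-/- cells. The class was chosen on these libraries, so these shares describe it and support nothing. The bounds cover counting and read assignment only.

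The p53-dependent higher genes were mostly low before treatment and the lower genes mostly abundant. Their median levels were 1.85 and 10.38 FPKM without and with treatment in p53+/+ cells and 1.84 and 2.03 FPKM in p53-/- cells. For the p53-dependent lower genes they were 22.6 and 7.13 FPKM in p53+/+ and 17.9 and 18.2 FPKM in p53-/- cells. The median untreated p53+/+ level of all genes was 8.19 FPKM. On the log2(FPKM + 1) scale a fall by the step needs an untreated level of 1 FPKM or more. Genes under 1 FPKM in untreated p53+/+ cells thus could not enter the lower class, and its higher level follows in part from the scale. Of the higher genes, 379 (30.7%) were under 1 FPKM in both untreated libraries, against 7.83% of all genes. Such genes were compared only because a treated library reached 1 FPKM, and the class was chosen on the treated p53+/+ library, so this share follows in part from the filter, and the log2(FPKM + 1) scale and the step shape it too. In the untreated libraries 91 of the higher genes (7.37%) were below p53+/+ cells by the step in p53-/- cells, against 3.14% of all genes, and 66 (5.35%) were higher, against 3.51%. Of the lower genes, 18 (7.59%) were lower and 3 (1.27%) higher in untreated p53-/- cells. Both the untreated comparison and the classes use the untreated libraries.

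**Figure D5:**
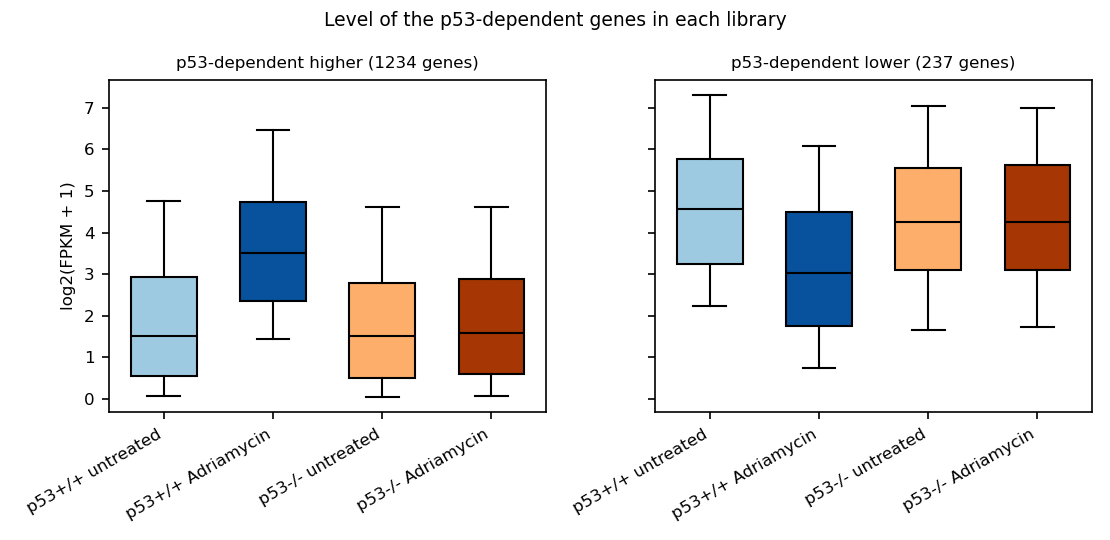
Levels, as log2(FPKM + 1), of the 1234 p53-dependent higher genes (left) and the 237 p53-dependent lower genes (right) in each library. Boxes span the quartiles over genes with the median as a line and whiskers reach the 5th and 95th percentiles; the treated p53+/+ library holds the highest box on the left and the lowest on the right, and the 2 p53-/- boxes nearly coincide in both panels.

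Many of the genes that were higher by the step in p53-/- cells only have 1 exon. Of the 40 higher ones, 18 (45.0%) had a single exon, against 3.3% of all genes and 3.89% of p53-dependent higher genes. The sperm aldolase gene Aldoart2 stood at 0.121, 0.126, 0.128 and 43.1 FPKM in the order of libraries given above, and Pnp2, a purine phosphorylase, at 1.62, 2.35, 2.83 and 45.4 FPKM. For both, only the treated p53-/- library was high, and Aldoart1 had the same pattern. Amd1, Tubg2, Csl, Pin1rt1 and G6pd2 also belong to families with close relatives. Amd1 stood at 4.39, 4.94, 0.0181 and 10.02 FPKM, so that its untreated p53-/- library was low. On the log2(FPKM + 1) scale both p53+/+ libraries lay nearer the treated p53-/- one. Of the 28 lower ones, Atp5k, a subunit of ATP synthase, stood at 256, 261, 203 and 28.4 FPKM and Rps21 at 1339.9, 2178, 1694 and 490.2 FPKM. The initiation factor gene Eif3m and the proteasome gene Psma3 followed with p53-/- responses of -1.57 and -1.54. The 28 lower genes had a median transcript length of 868.5 bases, against 2648 bases for all genes. Transcripts of at most 600 bases had a median p53-/- response of -0.11 and a median p53+/+ response of 0.11 over 324 genes. Ribosomal protein genes, most of which are short, had median responses of -0.27 in p53+/+ and -0.57 in p53-/- cells, and a median difference of 0.36 over 34 genes, or 0.05 over those within their own bounds. The sum of these genes was 13542 and 13435 FPKM in p53+/+ and 13280 and 9616 FPKM in p53-/- cells. The part of transcript length in these values was not tested, and reads of near-identical copies may be split among copies.

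The 2 genes with opposite responses include 1 such copy. Rps15a-ps4, a processed copy of Rps15a, stood at 34.8 and 9.18 FPKM in p53+/+ and at 18.8 and 183 FPKM in p53-/- cells, while Rps15a stood at 13.99 and 16.8 FPKM and at 22.9 and 3.303 FPKM. Gm6083 stood at 67.3 and 31.2 FPKM in p53+/+ and at 26.4 and 148 FPKM in p53-/- cells. Over genes whose FPKM lies within its own bounds no gene was left in the opposite class, and over all 13013 genes no gene rose in p53+/+ cells and fell in p53-/- cells by the step.

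The position of p53-dependent higher genes along the chromosomes was compared with that of the other genes compared, as counts without a test. Of the 1234 genes, 340 (27.6%) had a p53-dependent higher gene as their nearest compared neighbour on at least 1 side, against 1969 of the 11779 other genes (16.7%). There were 187 adjacent pairs, of which 9 overlapped. The longest runs held 4 genes: Cep250, Ergic3, Fer1l4 and Spag4 (chr2:155782294-155895235 in mm9); Cyp4f39, Cyp4f17, Cyp4f16 and Cyp4f40 (chr17:32589668-32813425); Dusp2, Astl, Adra2b and Gpat2 (chr2:127161895-127261828); and Phc2, Zfp362, Trim62 and Azin2 (chr4:128404815-128639661). Some runs are families with related sequences, such as the Cyp4f genes and the keratins Krt15, Krt19 and Krt16. Others, such as Dusp2, Astl, Adra2b and Gpat2, are not. Of the 237 lower genes, 16 (6.75%) had such a neighbour, against 3.52% of other genes. By chromosome, the share of p53-dependent higher genes was lowest on chromosome X, with 14 of 453 genes, and highest on chromosome 15, with 61 of 510 genes, leaving out chromosome Y with its 6 compared genes.

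Transcripts of 1 gene often moved unequally. Of 198 p53-dependent higher genes with several transcripts at 1 FPKM or more, all such transcripts had a response difference of 1 or more in 83, some in 109 and none in 6. Fbxw7, a ubiquitin ligase subunit that targets cyclin E and MYC proteins, is an example: its transcript NM_080428 stood at 1.14 and 25.2 FPKM in p53+/+ cells and near 0 in both p53-/- libraries, while NM_001177773 stood at 7.85 and 6.54 FPKM in p53+/+ and at 4.77 and 4.36 FPKM in p53-/- cells. For Cdkn1a the main transcript carried the change, at 25.9 and 82.99 FPKM in p53+/+ and at 16.7 and 24.1 FPKM in p53-/- cells. Of 59 p53-dependent lower genes with several such transcripts, all passed the step in 11, some in 47 and none in 1. Unequal transcripts were also found in genes with no step, such as Bri3, whose transcripts had response differences of -8.77 and 1.34. The share over all genes is not given, and the assignment of reads to transcripts was not tested.

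The transcript at the Apela locus, matched by position only, stood at 12.2 and 2.20 FPKM in p53+/+ and at 19.02 and 18.7 FPKM in p53-/- cells, a response difference of -2.02.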

How the data were processed

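RNA with a poly(A) tail from 4 groups, each with 1 library, was analysed; an exome enrichment kit is also named per the labels' protocols. The authors deposited 1 table per library with the FPKM of each transcript, its lower and upper bounds in FPKM, its coverage (a signal of reads per base) and its length, in the layout of Cufflinks per the file headers. CASAVA 1.8.1, TopHat2 2.0.5, TopHat and Cufflinks, with the build mm9, are named per the submitters' processing notes; the annotation and the version of Cufflinks are not given in the sources used here. Count tests were not used, since no counts are in these tables.

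The tables list 30769 transcripts each. Names came from a RefSeq gene table (GRCm38.p6) for 30227 rows and from GENCODE M21 for 180, and 362 rows had none. The 822 named short RNA rows (under 200 bases, or of classes such as miRNA, snoRNA, snRNA, tRNA and antisense RNA) were left out. FPKM was summed per gene, a pseudocount of 1 FPKM added, and genes with 1 FPKM or more in a library kept (13013, of which 3057 had several transcripts and 10620 had every value within its own bounds). Depth is coverage times length summed over transcripts; Cufflinks bounds cover counting and assignment only.

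Named genes were the 12 largest differences of each p53-dependent class, all shared and opposite genes, the 8 largest and 8 lowest p53-/- only genes, up to 5 members of each of 28 lists, Trp53, Cdkn1a, Mdm2 and Apela, and the genes nearest the step, with size ranks limited to genes of 5 FPKM or more and status OK. Other names were chosen after their values were seen. The members and lists were chosen with earlier results of these data known. Alternatives were pseudocounts of 0.1 and 5 FPKM, other filters, 3 scalings, the main transcript only, genes within bounds, and steps of 1.5-fold and 4-fold. The sorting was tested on simulated data over 7377 genes of 5 FPKM or more in both untreated libraries, with an assumed noise SD of 0.15. In each of 4 classes, 50 of 50 genes changed 4-fold were found, and 4 of 7177 unchanged genes entered a class. Genes of lower level and changes near the 2-fold step were not simulated. The result therefore does not cover most p53-dependent higher genes, whose median untreated p53+/+ level was 1.85 FPKM. Python 3.11.15, pandas 2.3.3, numpy 2.4.6 and matplotlib 3.10.9 were used.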

Additional observations from a re-analysis of the deposited data

Results flagged for a closer look

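Both genes that moved in opposite directions in the genotypes stood out: the response difference was -5.03 for Rps15a-ps4 and -3.53 for Gm6083, a difference that was not tested since each group has 1 library. Rows left out of the comparison also passed the step. Of the 362 unnamed and 822 short RNA transcripts, 133 and 42 passed the filter on low values. A p53+/+ response and a response difference both at 1 or more were found in 16 unnamed and 5 short RNA transcripts. The response difference alone was 1 or more in 22 and 8, and -1 or less in 8 and 10. Of all compared genes, 10.4% had a difference of 1 or more and 3.3% of -1 or less. With 1 library per group, no group could be searched for a library that stands apart.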

How the results depend on the processing

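No paired analysis was possible because each group has 1 library. The counts moved with the pseudocount and the step. With a pseudocount of 0.1 FPKM, 759 genes had a response difference of -1 or less, 450 were p53-dependent lower, 91 shared and 26 opposite. With 5 FPKM, 612 and 160 genes passed 1 and -1, 547 were p53-dependent higher, 93 lower, 2 shared and 1 opposite. Quantile normalization gave 398 p53-dependent lower and 4 opposite genes; it moved the median p53+/+ response of all genes from 0.05 to -0.09. The main transcript alone gave 25 shared and 14 opposite genes, and genes within their own bounds 9 and 0. A 1.5-fold step gave 2585 and 1797 genes past it, 2249 p53-dependent higher, 1133 lower, 123 shared and 29 opposite; a 4-fold step gave 317, 28, 286, 8, 1 and 0. Of the 1234 p53-dependent higher genes, 992 kept their class after quantile normalization and 546 with a pseudocount of 5 FPKM; of the 237 lower genes, 222 and 93 did. The response difference of Mup6 reversed to -0.70 with a pseudocount of 0.1 FPKM. Of 185 named genes, 34 no longer passed the step with 5 FPKM, among them Fos (1.09 to 0.82), Akr1b3 (-1.90 to -0.87) and Jun (1.41 to 0.73). The median differences of the AP-1, Wnt, topoisomerase, blood and neural lists took either sign. Depth cannot be read as counts here, so differences of genes near 1 FPKM are the least certain.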

Other observations

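In a few genes, a pair of transcripts had p53+/+ responses of opposite sign and response differences past the step in opposite directions, with p53-/- responses under 0.5 in size and no step in the gene's sum. This was found in 6 of 2027 genes with several transcripts, by a search set after values had been seen. The limit on p53-/- responses left out genes whose transcripts also moved in p53-/- cells. In Mlst8, for example, a transcript had responses of -1.97 in p53+/+ and 3.21 in p53-/- cells. No count with the genotypes exchanged is given, so the 6 genes are not set against a background. Abr, a regulator of small GTPases, had a longer transcript, NM_198894, at 13.7 and 3.48 FPKM without and with treatment in p53+/+ cells and at 9.38 and 8.86 FPKM in p53-/- cells. Its shorter transcript, NM_198895, stood at 1.19 and 15.3 FPKM in p53+/+ and at 4.76 and 5.004 FPKM in p53-/- cells, and the response difference of the gene was 0.16. Rbm47, an RNA-binding protein gene, had NM_001127382 at 5.48 and 0.799 FPKM in p53+/+ and at 1.71 and 2.37 FPKM in p53-/- cells, and NM_139065 at 1.96 and 8.41 FPKM and at 4.12 and 2.96 FPKM. Shroom3, a regulator of apical constriction, had NM_001077595 at 2.19 and 11.04 FPKM in p53+/+ and at 3.57 and 2.89 FPKM in p53-/- cells, and NM_001077596 at 5.08 and 2.76 FPKM and at 3.75 and 5.597 FPKM. The p53+/+ response of NM_001077596 was -0.69, short of the step, and its p53-/- response was 0.47. In these 3 genes the transcripts differ at 1 annotated end in mm9. Adam9, Commd6 and Trim24 were the others, and in each a transcript was near 0 in at least 1 library.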
